A study of Rattus norvegicus and Mus musculus with 10 samples.

Results

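The class II antigen presentation genes H2-Aa, H2-Ab1, H2-Eb1, H2-DMa, H2-DMb1, H2-Oa and Ciita were followed through the immune cells of the mouse dura. They were taken by symbol, and all 7 were found among the 31053 genes of the mouse count table. The study compared leukocytes of the central nervous system borders in rats and mice; only the mouse dura is described here. The EAE library pooled skull dura from 3 mice of strain C57BL/6, taken when active experimental autoimmune encephalomyelitis (EAE), an immune attack on the central nervous system raised by immunization, was at its peak. The naive library pooled skull dura from 4 mice of the same strain that had not been immunized. Both held cells sorted as CD45 positive and negative for a CD45 antibody given into the blood, which marks cells inside vessels, and both were made with version 3 of a droplet chemistry that counts the 3' ends of transcripts by unique molecular identifiers (UMIs). Age and sex were not used here. The titles name the condition of each library, whereas a further label gives EAE for both, so groups were taken from the titles.

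Class II molecules display peptides from engulfed material to CD4 T cells. The alpha and beta chains of the A molecule (H2-Aa and H2-Ab1) and the beta chain of the E molecule (H2-Eb1) form the peptide-binding groove, and C57BL/6 mice are known to lack a functional E alpha chain. The DM molecule (H2-DMa with H2-DMb1 or H2-DMb2) loads peptides by removing a fragment of the invariant chain Cd74, the O molecule (H2-Oa with H2-Ob) restrains DM, and Ciita is the coactivator that switches the whole set on in dendritic cells, macrophages and B cells.

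There was 1 library per condition, so no difference below has a replicate check, no p-value is given, and the 95% intervals reflect counting error alone. The authors' annotation put 4579 EAE and 2776 naive barcodes into 19 clusters, of which 16 held 20 or more cells in each condition; 7 barcode sequences occurred in both libraries. The EAE cells were deeper, with a median of 11743 UMIs and a lowest value of 5722, against 4163.5 and 503 in naive cells. Levels are a gene's UMIs per 1000000 UMIs of all genes in its cluster and condition (CPM), and a gene was said to rise or fall when its CPM differed more than 2-fold and it had 20 or more UMIs over both conditions. The clusters are the authors'. Their markers, in EAE and naive cells, were Xcr1 in mDC1 (122 and 91.1 CPM), Cd209a in mDC2 (298 and 1888 CPM), Ccr7 in myeloid3 (4558 and 5959 CPM), C1qa in myeloid1 (3963 and 3679 CPM), Vcan in myeloid2 (335 and 98.5 CPM), Siglech in pDC (1361 and 1771 CPM) and Cd79a in Bc (2126 and 3322 CPM). Ly6c2 was high in myeloid2 (1778 and 1193 CPM) but also in pDC (1924 and 611 CPM). In BcProg the 5 B cell markers summed to 207 CPM in EAE cells against 6268 CPM in naive cells, so its EAE cells go against that name. A list of 10 neutrophil transcripts summed to between 3265 and 16754 CPM over the EAE cells of these 7 antigen-presenting clusters and to between 123 and 428 CPM over their naive cells, and a list of 14 stress-response transcripts to between 2825 and 6614 CPM against 5183 and 11026 CPM; of the 10 neutrophil genes at most 1 was at 0 in those EAE cells and between 1 and 5 in the naive cells, and the part of both lists in the results was not tested. Within a cluster, fewer cells with a transcript and fewer transcripts per cell can both lower a CPM, so shares of cells are given beside the low genes.

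The A and E chain transcripts were concentrated in mDC2, myeloid1 and mDC1 and were not past 2-fold in any of those clusters. H2-Aa stood at 14977 CPM in EAE mDC2 and 19738 CPM in naive mDC2 (log2 ratio -0.40). In myeloid1 it stood at 11681 CPM in EAE cells and 17459 CPM in naive cells (log2 ratio -0.58). In mDC1 it stood at 11545 CPM in EAE cells and 14921 CPM in naive cells (log2 ratio -0.37). H2-Aa thus had the higher level in the naive library in all 3 of these clusters, by less than the 2-fold limit. H2-Ab1 in the same clusters ran the other way by total UMIs, with 12968 CPM in EAE and 10658 CPM in naive mDC2, 9981 CPM in EAE and 9503 CPM in naive myeloid1, and 11522 CPM in EAE and 7865 CPM in naive mDC1. H2-Eb1 had 12782 CPM in EAE and 13525 CPM in naive mDC2, 9438 CPM in EAE and 13221 CPM in naive myeloid1, and 9574 CPM in EAE and 9304 CPM in naive mDC1. These directions depend on the scaling. TMM factors moved all log2 ratios by -0.40 in mDC2, -0.31 in mDC1 and -0.27 in myeloid1, and H2-Ab1 then stood at -0.12 in mDC2, 0.24 in mDC1 and -0.20 in myeloid1, while H2-Eb1 in mDC1 stood at -0.27.

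**Figure D1:**
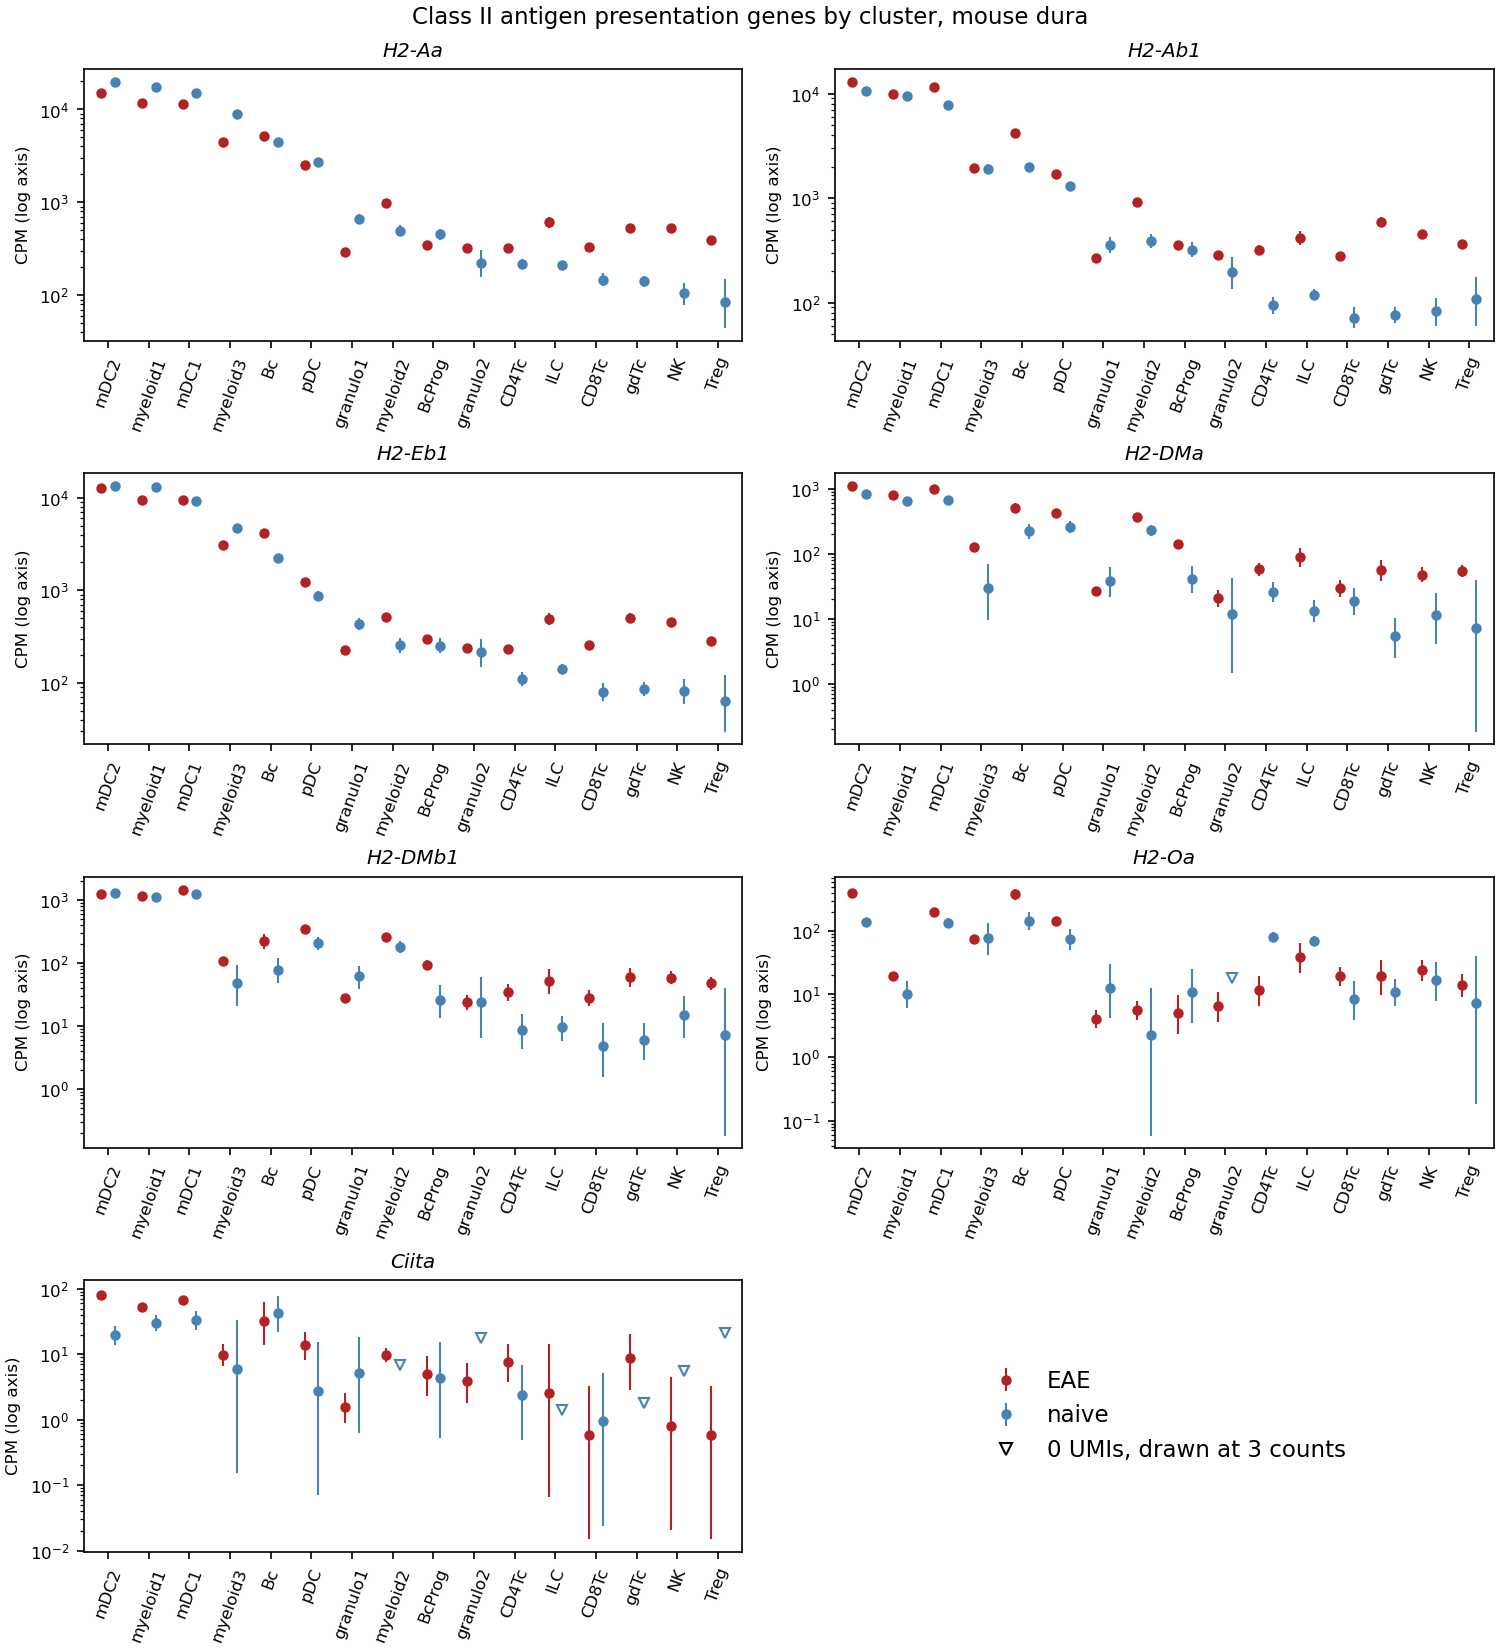
Level of each of the 7 genes (CPM, log axis) in the 16 clusters with 20 or more cells in each condition, EAE in red on the left and naive in blue on the right of each pair, ordered by the naive H2-Aa level, with exact Poisson 95% intervals; open triangles mark 0 UMIs drawn at 3 counts. The A and E chains are highest in mDC2, where H2-Aa stood at 14977 CPM in EAE and 19738 CPM in naive, and low in the T cell clusters, whereas H2-Oa stands out of that order in naive CD4Tc and ILC, at 80.9 and 69.9 CPM.

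Per cell, nearly every cell of mDC1 and mDC2 carried these transcripts in both conditions. The summed CPM of H2-Aa, H2-Ab1 and H2-Eb1 passed 10000 in 98.8% of 563 EAE and 97.2% of 176 naive mDC2 cells, and in 100% of 141 EAE and of 80 naive mDC1 cells. In myeloid3 23.8% of 281 EAE and 60.9% of 23 naive cells passed it, and in pDC 13.5% of 126 EAE and 4.17% of 48 naive cells. In myeloid1, the C1qa-bearing macrophage cluster, 93.2% of 1000 EAE cells (exact 95% interval 91.5% to 94.7%) and 89.0% of 227 naive cells (84.2% to 92.7%) passed it. The cells of myeloid1 were spread more widely than those of mDC1 and mDC2, with a 10th percentile of 13451 CPM in EAE and 9399 CPM in naive cells around medians of 31998 and 38894 CPM. EAE myeloid1 also held 434 CPM of Chil3 and 651 CPM of Ly6c2, both known from monocytes, against 5.06 and 69.2 CPM in naive myeloid1; their part in these levels was not tested.

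The clusters with intermediate levels moved in different directions. In myeloid3, whose cells carry Ccr7 and Fscn1, known from migrating dendritic cells, H2-Aa fell 2.01-fold, to 4457 CPM in EAE cells against 8974 CPM in naive cells (1.91 to 2.12). H2-Eb1 there had 3076 and 4699 CPM and H2-Ab1 1932 and 1893 CPM in EAE and naive cells. The median cell of myeloid3 had a summed level of 3780 CPM in EAE and 12953 CPM in naive, but the naive side was 23 cells. In pDC none of the 3 chains passed 2-fold, with H2-Aa at 2534 CPM in EAE and 2736 CPM in naive cells. In Bc, the B cells, H2-Ab1 rose 2.11-fold (1.90 to 2.35), to 4178 CPM in EAE cells against 1980 CPM in naive cells. H2-Aa in Bc stood at 5166 CPM in 25 EAE cells and 4515 CPM in 74 naive cells, and H2-Eb1 at 4142 and 2228 CPM. The lower and upper quartiles of the 3 chains together were 7789 and 13139 CPM over EAE B cells, against 690 and 14137 CPM over naive B cells, which were spread more widely. The EAE B cells also had the highest sum of the 10 neutrophil transcripts among these clusters, 16754 CPM with none at 0, against 205 CPM with 3 at 0 in naive B cells; its part in the B cell results was not tested. Of the B cell markers, Ms4a1 stood at 384 CPM in EAE cells and 1118 CPM in naive cells, Cd79b at 730.4 and 1838 CPM and Ebf1 at 571 and 1326 CPM, each past 2-fold, and Vpreb1 and Igll1, known from B cell precursors, at 188 and 61.2 CPM in EAE cells and at 0 in naive cells. The 25 EAE cells of Bc thus differed in these markers from the 74 naive ones, and the part of this in the B cell results was not tested. TMM moved the log2 ratios by 0.22 in Bc, where H2-Eb1 then stood at 1.12, and by -0.10 in myeloid3, where H2-Aa stood at -1.11.

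In myeloid2, a cluster with Ly6c2 and Chil3, known from monocytes, all 3 chains were low and higher in the EAE library. H2-Ab1 rose to 914 CPM in EAE cells against 392 CPM in naive cells (2.34-fold, 2.01 to 2.73) and H2-Eb1 to 510.4 CPM against 254 CPM (2.01-fold, 1.66 to 2.45). H2-Aa had 984 CPM in EAE cells and 499 CPM in naive cells, a ratio of 1.97 (1.72 to 2.27). The T, NK and innate lymphoid clusters had low levels of these chains, which T and NK cells should lack. In the EAE library they had up to 504 CPM of H2-Eb1 and 594 CPM of H2-Ab1, both in gdTc. In the naive library they had up to 141 CPM of H2-Eb1 and 119 CPM of H2-Ab1, both in ILC. The naive neutrophil cluster granulo1 had more, 434 CPM of H2-Eb1 and 358 CPM of H2-Ab1. The H2-Eb1 level of EAE myeloid2 was thus close to that of EAE gdTc, and that of naive myeloid2 lay below naive granulo1. Over the 3 chains together, EAE gdTc had 1625 CPM with a median cell of 616 CPM. EAE myeloid2 had 2409 CPM with a median cell of 703 CPM. The upper parts of the 2 clusters were not alike. The upper quartile and 90th percentile were 3092 and 7685 CPM in EAE myeloid2, against 856 and 1075 CPM in EAE gdTc. Of the EAE cells, 6.44% in myeloid2 and 1.27% in gdTc passed 10000 CPM. The naive myeloid2 level of H2-Aa lay below that of the naive neutrophil cluster granulo1, at 669 CPM, while H2-DMa lay above it, at 229 CPM in naive myeloid2 and 38.3 CPM in naive granulo1. A UMI of H2-Aa was found in 91.9% of EAE and 55.1% of naive myeloid2 cells, and in 86.9% of EAE and 45.0% of naive granulo1 cells. When every cell was thinned to 1000 UMIs, and shallower cells were left out (12 of 80 in naive granulo1, 1 of 49 in naive myeloid2), the shares were 39.0% of EAE and 19.8% of naive myeloid2 cells, against 16.3% of EAE and 12.5% of naive granulo1 cells. The median depths were 12505 UMIs in EAE and 8643 UMIs in naive myeloid2, and 14547 UMIs in EAE and 3295.5 UMIs in naive granulo1.

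**Figure D2:**
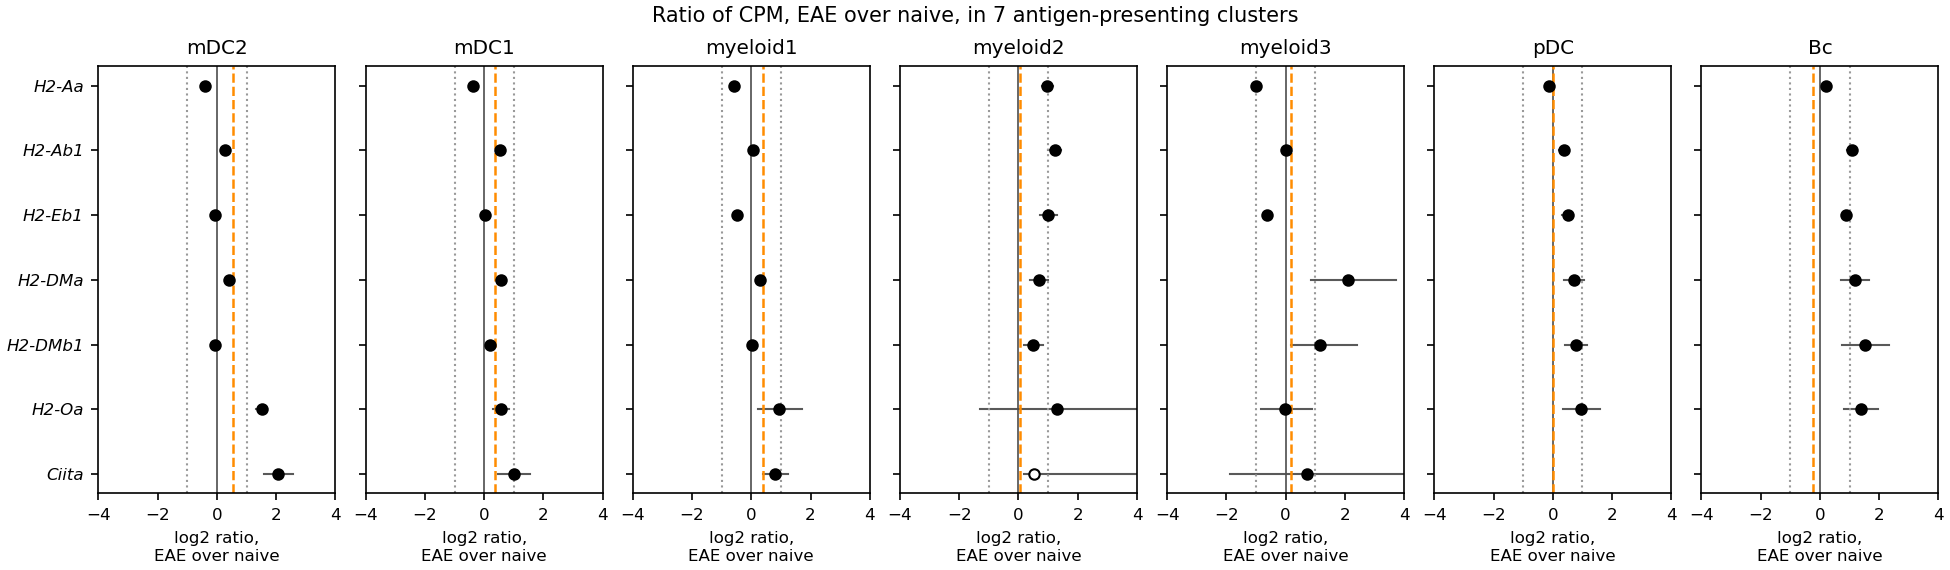
Log2 ratio of CPM, EAE over naive, of the 7 genes in the 7 antigen-presenting clusters, with exact conditional binomial 95% intervals (cut at the panel edge where they run past it); dotted lines mark 2-fold, the dashed orange line is the median of all genes tested in the cluster, genes under 20 UMIs are not drawn, and the open point is set against 3 counts because the naive side was 0. H2-Oa (1.50) and Ciita (2.05) are right of the 2-fold line in mDC2, and H2-Aa lies left of H2-Ab1 in all 7 panels.

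Counted over all 7 genes, the numbers past 2-fold differed between clusters, as did the background of all genes. In mDC2, 2 of 7 rose (H2-Oa and Ciita) and 0 fell, where 30.0% of 9386 genes tested rose and 5.32% fell. In mDC1 0 of 7 rose and 0 fell, where 19.0% of all genes rose and 3.37% fell. In myeloid1 0 of 7 rose and 0 fell, where 20.8% rose and 4.59% fell. In myeloid2 3 of 7 rose, where 12.7% of all genes did. In myeloid3 2 of 7 rose and 1 fell, where 20.1% rose and 5.53% fell. In pDC 0 of the 6 genes with enough UMIs rose or fell, where 11.2% rose and 6.59% fell. In Bc 4 of the 6 with enough UMIs rose and 0 fell, where 8.07% of 3074 genes rose and 18.3% fell; no test of these shares was possible. The median log2 ratio of the genes was 0.28 in mDC2 (0.55 over all genes tested), 0.07 in myeloid1 (0.40), 0.55 in mDC1 (0.38), 0.98 in myeloid2 (0.05), 0.03 in myeloid3 (0.19), 0.61 in pDC (0.02) and 1.13 in Bc (-0.24). Set against the median of all genes in the cluster, H2-Aa stood 0.94 lower in mDC2, 0.98 lower in myeloid1 and 0.75 lower in mDC1 on the log2 scale, and 0.43 higher in Bc.

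The balance of the A alpha and beta transcripts differed between the libraries across nearly all clusters. Over all annotated cells there were 1.17 H2-Aa UMIs per H2-Ab1 UMI in EAE (1.16 to 1.17) and 1.87 in naive (1.85 to 1.89). The ratio was lower in EAE in 15 of 16 clusters, with medians of 1.14 in EAE and 1.85 in naive; Treg was the exception, with 12 and 15 naive UMIs of the 2 genes. It was 1.15 in EAE and 1.85 in naive mDC2, 1.17 and 1.84 in myeloid1, and 1.90 in naive mDC1, where the EAE interval was 0.986 to 1.02. Split by depth within each library, myeloid1 cells below their median UMI count gave 1.17 in EAE and 1.83 in naive, and those at or above it 1.17 and 1.84. Against the invariant chain Cd74, H2-Aa stood at 0.345 in EAE and 0.361 in naive, H2-Eb1 at 0.280 and 0.248, and H2-Ab1 at 0.296 and 0.193; of these 3 ratios that of H2-Ab1 differed most. In both libraries myeloid3 had the highest ratio, at 2.31 in EAE and 4.74 in naive. With 1 library per condition, the condition and the library cannot be told apart as the source of this gap.

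**Figure D3:**
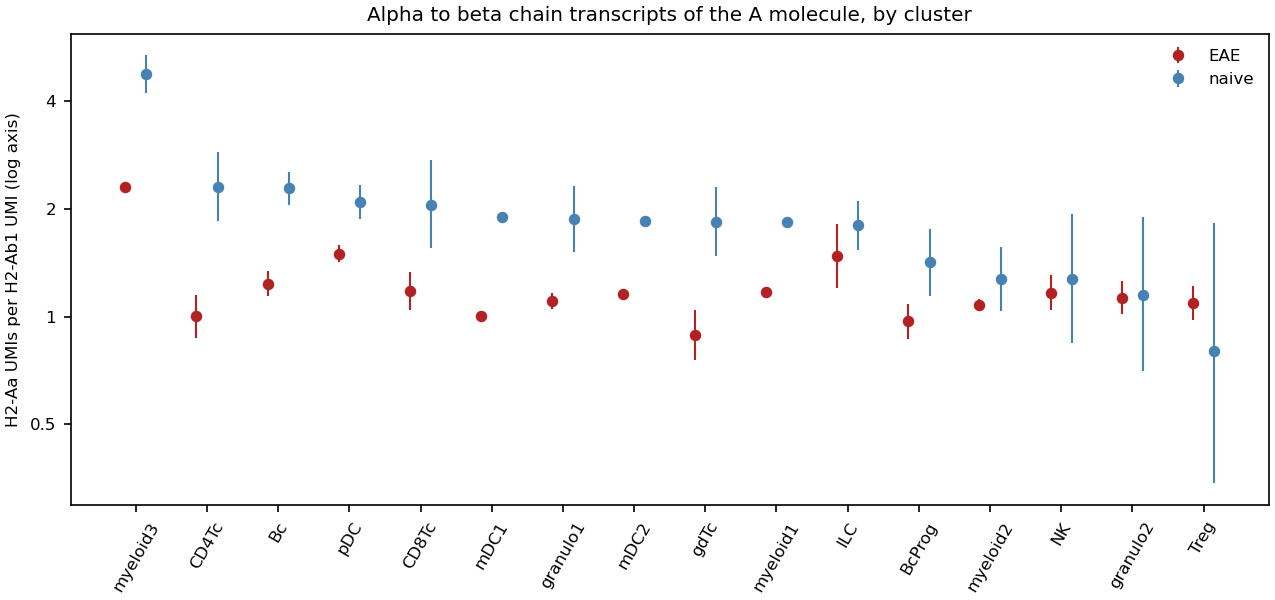
H2-Aa UMIs per H2-Ab1 UMI (log axis) in each of 16 clusters, EAE in red on the left and naive in blue on the right of each pair, with exact conditional binomial 95% intervals. EAE lies below naive in every cluster but Treg, and both libraries are highest in myeloid3 at 2.31 and 4.74.

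The low levels of these chains in T, NK and innate lymphoid clusters followed the library. T and NK cells should lack these chains, and ILC are set beside them without that premise. The 90th percentile of the 3 chains together was 3990 CPM in EAE ILC and 2474 CPM in EAE NK. It was 1348 CPM in EAE CD4Tc, 1138 CPM in CD8Tc, 1075 CPM in gdTc and 1009 CPM in Treg. H2-Aa had between 322 and 610 CPM in the 6 EAE clusters (CD4Tc, CD8Tc, gdTc, Treg, NK and ILC), against 294 and 321 CPM in the EAE neutrophil clusters granulo1 and granulo2. In the naive library the 6 clusters had between 85.7 and 217 CPM, against 669 and 226 CPM in the neutrophils. Pooled over the 6 clusters, the ratio of H2-Aa to H2-Ab1 was 1.11 in EAE and 1.87 in naive, close to that of all cells of the same library. Single clusters lay on both sides of it. UMIs of H2-Aa and H2-Ab1 were 300 and 338 in EAE gdTc and 234 and 159 in EAE ILC. They were 56 and 44 in naive NK and 276 and 120 in naive CD4Tc. What part of these low levels is free RNA was not tested. In naive granulo1 the median cell had 243 CPM of the 3 chains together, while the 90th percentile was 2367 CPM. Some ratios changed sign among cells with 5722 or more UMIs. In CD4Tc, where 14 naive cells remained, H2-Aa, H2-Eb1 and H2-DMa gave log2 ratios of -0.85, -1.06 and -0.66 in place of 0.57, 1.06 and 1.17. In ILC, with 40 naive cells, H2-Aa gave -0.047 in place of 1.51, and in gdTc, with 28, H2-Oa gave -0.55 in place of 0.83. No ratio of the 7 genes changed sign in CD8Tc, NK or Treg, where 42, 28 and 7 naive cells remained. All 30 naive Treg cells together held only 12 UMIs of H2-Aa and 15 of H2-Ab1, so the sign there says little.

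H2-DMa and H2-DMb1 encode the chains of the peptide loader DM. H2-DMb1 (chromosome 17, 34153072 to 34160230, + strand, GRCm38) lies beside its near copy H2-DMb2 (34143307 to 34151555), and 3' reads can tell them apart only where they differ. Their main transcripts in the GENCODE M21 annotation were 96.1% identical up to the stop codon, with a longest identical run of 221 bases, and 66.1% identical over 277 aligned bases after it. After the stop codon come 291 bases in H2-DMb1 and 458 bases in H2-DMb2, which differ at 94 of the 277 aligned positions. The last 60 coding bases of both are shown as an example from the more alike part before it. Capitals mark the 5 positions at which they differ.
H2-DMb1: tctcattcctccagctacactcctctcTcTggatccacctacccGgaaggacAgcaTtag
H2-DMb2: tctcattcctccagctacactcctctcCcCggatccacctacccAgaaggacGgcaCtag
How many reads the authors' counting gave to one or the other was not tested. Of the other members on chromosome 17, H2-DMa (34119541 to 34139101) overlaps CR974462.3 on the same strand, a gene not analysed here, and Brd2 on the opposite strand, and H2-Oa (34092340 to 34095234) overlaps the antisense gene BC051537, which had at most 1 UMI in any cluster and condition.

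H2-DMa in the 3 clusters with the highest chain levels was not past 2-fold: 1102 CPM in EAE and 824 CPM in naive mDC2, 992 and 669 CPM in mDC1, and 801 and 652 CPM in myeloid1. H2-DMb1 had 1252 CPM in EAE and 1315 CPM in naive mDC2, 1465 and 1274 CPM in mDC1, and 1158 and 1126 CPM in myeloid1. Its partner copy H2-DMb2 had a different distribution: 404 CPM in EAE and 283 CPM in naive mDC2, 25.2 and 37.7 CPM in myeloid1, but 522 and 653 CPM in Bc, where H2-DMb1 had 224 CPM in EAE and 78.7 CPM in naive cells. H2-DMa rose in Bc to 502 CPM in EAE cells against 220.4 CPM in naive cells (2.28-fold, 1.65 to 3.18), and H2-DMb1 rose there 2.85-fold (1.68 to 5.02), on 55 EAE and 20 naive UMIs. Both also rose in myeloid3, H2-DMa to 127 CPM in EAE cells against 29.9 CPM in naive cells and H2-DMb1 to 108 CPM against 47.8 CPM, on only 5 and 8 naive UMIs. Counting each cell equally left neither of the 2 genes past 2-fold in myeloid3. Between myeloid3 and mDC2 H2-DMa thus stood at 127 and 1102 CPM in EAE, while H2-Aa stood at 4457 and 14977 CPM. In pDC H2-DMa had 417 CPM in EAE and 254 CPM in naive cells and H2-DMb1 353 and 206 CPM.

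H2-Oa, the alpha chain of the DM inhibitor O, was the one structural gene among the 7 that rose in mDC2. It reached 399 CPM in EAE cells, on 3119 UMIs, against 141 CPM in naive cells, on 264 UMIs (2.83-fold, 2.50 to 3.23). Of the mDC2 cells 85.6% in EAE and 54.5% in naive had a UMI of it, at median depths of 13539 and 11142 UMIs; thinned to 1000 UMIs the shares were 30.5% and 12.2%, against 0.333% of EAE and 2.51% of naive granulo1 cells. Other markers differed between the libraries in mDC2 as well, with Cd209a at 298 CPM in EAE and 1888 CPM in naive cells. Another dendritic marker, Clec10a, had 334 and 289 CPM. Macrophage and monocyte markers went both ways. Mrc1 (30.8 and 113 CPM), Adgre1 (13.4 and 29.9 CPM) and Ccr2 (172 and 203 CPM) were lower in EAE. Csf1r (108 and 54.9 CPM), C1qa (150 and 68.3 CPM), Ly6c2 (142 and 13.3 CPM) and Chil3 (81.8 and 2.13 CPM) were higher. The rise of these was not particular to mDC2. In EAE and naive CD4Tc, Csf1r had 17.1 and 2.36 CPM, C1qa 103 and 11.8 CPM, Ly6c2 49.6 and 37.7 CPM and Chil3 76.7 and 7.07 CPM. The part of the marker differences in the mDC2 results, H2-Oa and Ciita included, was not tested. H2-Oa rose as well in Bc, to 379 CPM in EAE cells against 146 CPM in naive cells (2.61-fold, 1.76 to 3.92). In mDC1 it had 202 CPM in EAE and 135 CPM in naive cells, in pDC 145 and 75.3 CPM and in myeloid3 76.0 and 77.6 CPM. The macrophage cluster myeloid1 was set apart by a low level, 19.2 CPM in EAE and 10.1 CPM in naive cells, beside H2-Aa levels like those of the dendritic cells. In myeloid2 the gene passed 2-fold on 35 EAE and 1 naive UMIs, with an interval of 0.411 to 99.4. H2-Ob, the partner chain, did not pass 2-fold in mDC2, with 81.4 CPM in EAE and 61.3 CPM in naive cells, or in Bc, with 241 and 295 CPM.

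**Figure D4:**
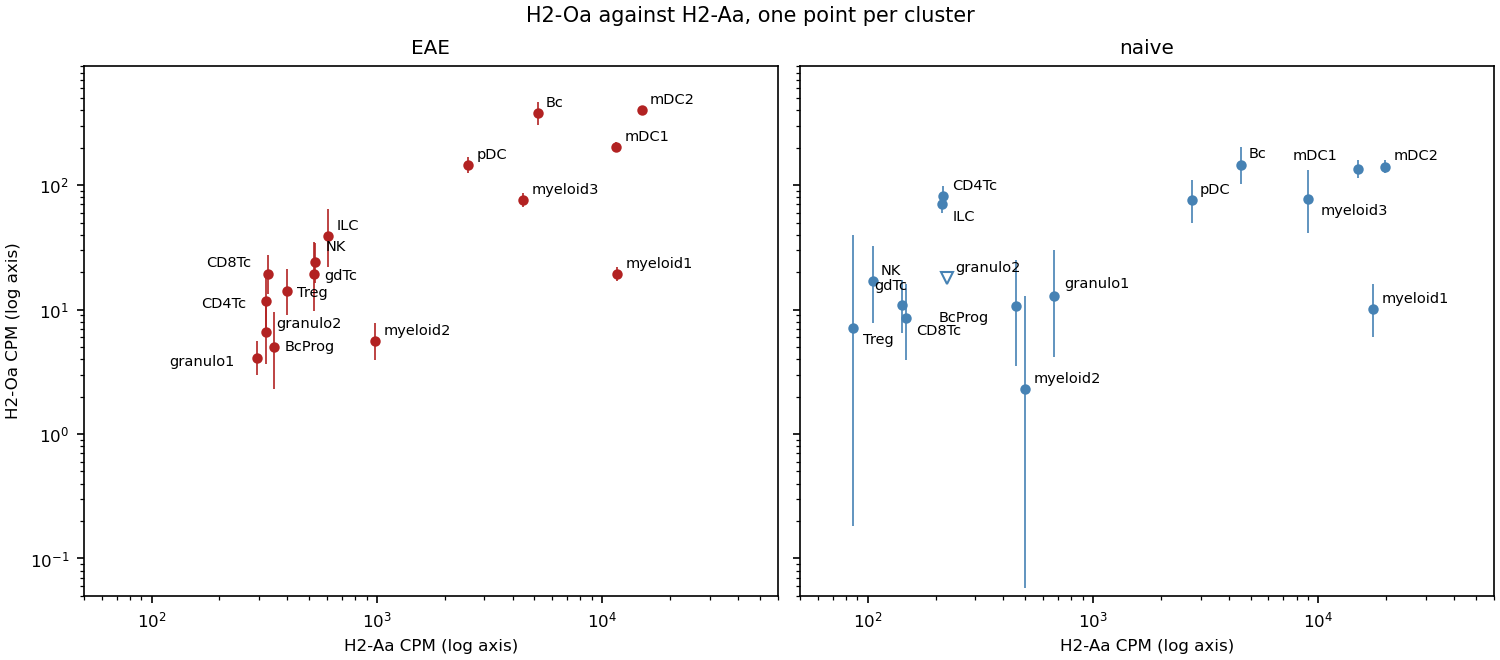
H2-Oa level against H2-Aa level (CPM, both axes log) with 1 point per cluster, EAE in the left panel and naive in the right, exact Poisson 95% intervals on H2-Oa; the open triangle is 0 UMIs drawn at 3 counts. Naive CD4Tc and ILC lie far above other clusters of similar H2-Aa, at 80.9 and 69.9 CPM of H2-Oa, and myeloid1 lies far below the dendritic clusters in both panels, at 19.2 CPM in EAE and 10.1 CPM in naive.

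H2-Oa was also read where the A and E chains were low. Naive ILC had 69.9 CPM of it (59.1 to 82.2) on 148 UMIs, and EAE ILC had 39.1 CPM (21.9 to 64.4) on 15 UMIs. Of the 114 naive ILC with a UMI of H2-Oa, 64 had none of H2-Aa. Naive CD4Tc had 80.9 CPM (66.1 to 98.2), and there the gene fell, to 11.6 CPM in EAE cells (6.51 to 19.2), 6.96-fold (4.03 to 12.9), where 9.32% of all genes fell. The naive gdTc and CD8Tc clusters, of similar depth, had 10.9 and 8.52 CPM. A UMI of H2-Oa was found in 22.5% of naive ILC and 21.0% of naive CD4Tc cells, against 4.49% of naive gdTc and 2.92% of naive CD8Tc cells. Thinned to 1000 UMIs, the shares were 6.25% of naive ILC and 7.34% of naive CD4Tc cells, against 1.09% of naive gdTc and 0.599% of naive CD8Tc cells, at median depths of 3883, 3445, 4277 and 4137.5 UMIs. A cluster named for T cells, naive CD4Tc went against its label in part. Of its 353 cells, 207 had no UMI of Cd3d, Cd3e, Cd3g or Trac, against 5 of 152 in EAE CD4Tc, 5 of 379 in naive gdTc and 1 of 240 in naive CD8Tc. These 207 cells had 116 CPM of H2-Oa and 915 CPM of Gata3 and Il1rl1 together, 2 genes known from group 2 innate lymphoid cells. The 146 naive CD4Tc cells with such a UMI had 31.9 CPM of H2-Oa and 357 CPM of Gata3 and Il1rl1. The makeup of CD4Tc thus differed along with its H2-Oa level. Among cells with a UMI of these 4 T cell genes H2-Oa had 11.3 CPM in EAE, on 14 UMIs, against 31.9 CPM in naive, on 17 UMIs. In ILC 38 of 53 EAE cells had such a UMI, against 78 of 507 naive cells, at median depths of 6769 and 3883 UMIs. In NK 62 of 154 EAE and 40 of 106 naive cells had one, so it does not by itself name a T cell. Trac stood at 313 CPM in EAE and 16.1 CPM in naive ILC, and at 27.3 and 69.6 CPM in NK. The EAE cells of ILC thus go in part against its name. The ILC cells without such a UMI had 111 CPM of H2-Oa in EAE (15 cells) and 67.3 CPM in naive (429 cells). Those with one had 7.49 CPM in EAE, on 2 UMIs, and 83.2 CPM in naive, on 29 UMIs.

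Ciita, the coactivator (chromosome 16, 10480059 to 10528418, + strand), rose in mDC2, where its EAE level was the highest of the 16 clusters, with an interval that overlapped that of EAE mDC1 (57.3 to 77.5 CPM). EAE mDC2 had 81.9 CPM (75.7 to 88.5) on 640 UMIs and naive mDC2 19.7 CPM (13.9 to 27.2) on 37 UMIs, a 4.15-fold ratio (2.98 to 5.95). In mDC1 Ciita had 66.8 CPM in EAE and 33.6 CPM in naive cells, a ratio of 1.99 (1.39 to 2.90). In myeloid1 it had 53.2 CPM in EAE and 30.4 CPM in naive cells, a ratio of 1.75 (1.33 to 2.36). The intervals of these 3 ratios lay above 1, and only mDC2 passed 2-fold. Under TMM the log2 ratios were 1.65 in mDC2, 0.68 in mDC1 and 0.54 in myeloid1. Of the mDC2 cells 59.9% in EAE and 17.6% in naive had a UMI of Ciita; thinned to 1000 UMIs the shares were 8.06% and 1.66%, against 0.114% of EAE and 0% of naive granulo1 cells. Beside the log2 ratio of 2.05 for Ciita in mDC2, the A and E chain genes, which it is known to drive, had -0.40 (H2-Aa), 0.28 (H2-Ab1) and -0.08 (H2-Eb1).

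In the other clusters Ciita rested on few UMIs, at most 11 in any naive cluster. In myeloid2 it had 62 UMIs over 481 EAE cells (9.92 CPM) and 0 over 49 naive cells, where 3 counts would be 6.87 CPM, so it was at least 1.44-fold higher in EAE by that floor; the exact 95% interval of the ratio begins at 1.14. In pDC it had 18 EAE UMIs (14.1 CPM) and 1 naive UMI (2.79 CPM), a ratio of 5.05 with an interval of 0.797 to 210.3. In Bc it had 8 EAE UMIs (32.6 CPM) and 11 naive UMIs (43.3 CPM), a ratio of 0.754 (0.263 to 2.06), so no difference was detectable at this depth. In naive B cells Ciita was the highest of the naive clusters, and its interval, 21.6 to 77.5 CPM, took in the naive mDC1 and myeloid1 levels. Among naive ILC 0 of 507 cells had a UMI, where 3 cells would be 0.592% and the exact upper limit is 0.725%. Among naive gdTc it was 0 of 379, where 3 cells would be 0.792% and the exact upper limit is 0.969%.

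The other genes of the pathway were measured as a list of 23, of which 20 were found in the table; the E alpha gene and Ifi30 were not analysed here. In mDC2 2 of the 19 with enough UMIs rose and 1 fell, in myeloid1 0 of 20 rose and 1 fell, and in Bc 2 of 11 rose (Ctsb and Ctsd) and 2 fell (Cd40 and Nfyc). Over all genes 30.0% rose and 5.32% fell in mDC2, 20.8% and 4.59% in myeloid1, and 8.07% and 18.3% in Bc. Cd74, the invariant chain that guides class II molecules through the cell, had 41205 CPM in EAE and 55362 CPM in naive mDC2, 35044 and 50883 CPM in myeloid1, and 18631 and 18571 CPM in Bc. Rfxap, a subunit of the promoter-binding complex on which Ciita acts, rose in mDC2 to 33.0 CPM in EAE cells against 12.3 CPM in naive cells. Ctsd, a lysosomal protease, rose there to 141 CPM against 65.1 CPM, but its TMM log2 ratio was 0.71. Cd40, which receives help from T cells, fell in mDC2 to 144 CPM in EAE cells against 396 CPM in naive cells, and in myeloid1 to 71.5 CPM against 172 CPM.

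Genes that are known to drive or limit Ciita were measured as a list of 14 that also held Nlrc5, the coactivator of class I genes. Nlrc5 is counted below among the genes that rose in mDC2 and myeloid1. In mDC2 5 of the 13 with enough UMIs rose and 2 fell, in myeloid1 4 of 14 rose and 2 fell, and in Bc 2 of 10 rose and 2 fell (Irf1 and Irf4). The shares that rose over all genes were 30.0% in mDC2, 20.8% in myeloid1 and 8.07% in Bc. The interferon gamma receptor chain Ifngr1 rose in mDC2 to 414 CPM in EAE cells against 156 CPM in naive cells. The myeloid factors Spi1 and Irf8 rose in mDC2, Spi1 to 453 CPM in EAE cells against 126 CPM in naive cells and Irf8 to 85.0 CPM against 18.7 CPM. Irf4 fell in mDC2 to 13.9 CPM in EAE cells against 43.2 CPM in naive cells. In myeloid1 Spi1 rose to 463 CPM in EAE cells against 231 CPM in naive cells, and its TMM log2 ratio was 0.73. Socs1 and Il10, which restrain the response, fell in myeloid1, Socs1 to 16.4 CPM in EAE cells against 42.2 CPM in naive cells and Il10 to 20.3 CPM against 69.2 CPM.

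Class I genes were measured in the same cells as a list of 10. In mDC2 6 of 10 rose, in myeloid1 4 of 10 and in Bc 4 of 10 (Tap1, Tap2, Psmb8 and Psmb9), and none fell in these clusters, where 30.0%, 20.8% and 8.07% of all genes rose. The genes of the presenting molecules, H2-K1, H2-D1, B2m and H2-T23, did not pass 2-fold in these clusters. Their log2 ratios in mDC2 were 0.57, -0.21, -0.22 and 0.07, in that order. In myeloid1 they were 0.57, -0.05, -0.45 and -0.15. Nlrc5, the coactivator of class I genes and a relative of Ciita, rose in mDC2 to 16.6 CPM in EAE cells against 5.33 CPM in naive cells and in myeloid1 on 181 EAE and 5 naive UMIs (log2 2.41). The peptide transporter gene Tap1 rose in mDC2 to 317 CPM in EAE cells against 78.4 CPM in naive cells and in myeloid1 to 202 CPM against 69.8 CPM. Tap2 rose in mDC2 to 91.4 CPM against 40.0 CPM, but its TMM log2 ratio was 0.79. In Bc it rested on 18 EAE and 8 naive UMIs, with an interval of 0.965 to 6.20. Tapbp, which loads class I molecules, rose in mDC2 to 219 CPM in EAE cells against 100.3 CPM in naive cells and in myeloid1 to 221 CPM against 109.7 CPM; its TMM log2 ratios were 0.72 and 0.74. The immunoproteasome gene Psmb8 rose in all 3, to 1220 CPM in EAE mDC2 against 308 CPM in naive mDC2, 874 against 325 CPM in myeloid1 and 649 against 165 CPM in Bc. Psmb9 rose in mDC2 (log2 1.62) and Bc (1.25), and Psmb10 in mDC2 (1.71) and myeloid1 (1.27).

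Across the 34 cluster and condition groups of 20 or more cells, the 5 genes most like the mean of the 3 A and E chains, with the 7 members left out and by Pearson correlation of log2(CPM + 10) among 7588 genes, were Cd74 (0.99), Fgd2 (0.87), Cd86 (0.87), Gm6377 (0.86) and Hfe (0.84). Those most like Ciita, again without the members, were Fgd2 (0.86), Cd74 (0.85), H2-DMb2 (0.81), Cd86 (0.81) and Wdfy4 (0.81). Those most like H2-Oa, likewise, were H2-DMb2 (0.83), A530040E14Rik (0.74), Btla (0.74), Grasp (0.74) and AC125149.3 (0.74). The groups share 2 libraries and differ in depth, so these values are descriptions. H2-Oa was the member least like the A and E chains, at 0.66, where H2-DMb1 stood at 0.91, H2-DMa at 0.88 and Ciita at 0.87.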

How the data were processed

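For the mouse libraries the authors deposited a matrix of UMI counts, not normalized, with a cluster and a condition for most barcodes. Per the submitters' processing notes, Cell Ranger 3.1.0 and mm10 were used by the authors. The labels state a mean of 3900 cells per mouse sample (SEM 1100); the files hold 5000 EAE and 3126 naive barcodes. The 771 barcodes with no cluster were left out of all comparisons. UMIs were summed per cluster and condition and divided by the total (CPM), with exact Poisson intervals; shares carry Clopper-Pearson and ratios exact conditional binomial 95% intervals. Where one side had no UMI, 3 counts over the group stood in for it, with no call where that ran against the counts. UMIs are counts of molecules; no interval covers mice or library preparation. Thinned shares are hypergeometric expectations, with shallower cells left out. The 7 genes were described in every cluster with 20 cells in each condition; other genes were named where they had 100 UMIs in myeloid1, mDC2 or Bc and were past 2-fold there, with Cd74, H2-DMb2 and H2-Ob always, except 1 gene that is not reported here; the split of CD4Tc and ILC by Cd3d, Cd3e, Cd3g and Trac, the genes past 2-fold in Bc under 100 UMIs and H2-DMb2 beside H2-DMb1 were named or looked at after their values were seen. The genes and lists were chosen with earlier results of these data known. Alternatives were TMM scaling (edgeR 4.0.16 in R 4.3.3), equal weight per cell, a shared depth minimum, other count minimums and leaving out doublets. Doublets, kept in all values reported, were sought by scrublet (scanpy 1.11.5), which marked 67 EAE cells (1.46%) and 3 naive cells (0.108%), too few to have worked in the naive library. The ratio step was tested on simulated counts. Gene positions and transcripts came from GENCODE M21 on GRCm38, which is mm10. Other steps ran in Python 3.11.15 with scipy 1.17.1, pandas 2.3.3, numpy 2.4.6 and Biopython 1.88; figures were drawn with matplotlib 3.10.9.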

Additional observations from a re-analysis of the deposited data

Results flagged for a closer look

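Barcodes with no cluster, which entered no comparison, also carried these transcripts, above the level that a count of 0 allows. H2-Aa stood at 815 CPM over 421 EAE barcodes and at 1669 CPM over 350 naive barcodes. Ciita stood at 5.64 CPM in the EAE and at 23.3 CPM in the naive ones. Their median depth was 19148 UMIs in EAE and 1701 UMIs in naive, and what cells they held was not tested.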

How the results depend on the processing

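No paired analysis was possible because each condition is 1 pooled library. Equal weight per cell put 1 of the 7 genes past 2-fold higher in mDC1 (0 as reported) and 0 in myeloid3 (2); leaving out doublets left 1 in myeloid3 and gave 1 in pDC (0), as did TMM scaling and no minimum count. The depth minimum gave 1 in myeloid1 (0). The median log2 ratio under TMM was 0.24 in mDC1, -0.12 in mDC2 and -0.20 in myeloid1, and with equal weight 0.24 in mDC2 and 0.16 in myeloid1. Other pathway genes: with the depth minimum 0 fell in Bc (2); in mDC2 1 rose under TMM (2) and 2 fell with no minimum (1); in myeloid1 1 rose with equal weight or without doublets (0) and 2 fell with equal weight (1). Of the Ciita list, 0 fell in Bc at the depth minimum (2). The depth minimum turned the log2 ratio of H2-Aa in ILC to -0.047, of H2-Eb1 in CD4Tc to -1.06 and of H2-DMa in CD4Tc to -0.66. The causes were not tested. Shares thinned to 500 UMIs, which are lower by construction when the cells are the same, were 3.19% and 3.84% for H2-Oa in naive ILC and CD4Tc, and 4.16% and 2.68% for Ciita in EAE mDC2 and myeloid1. Of the 99 ratios of single genes, 9 changed sign under TMM, 3 without doublets and 2 with equal weight, and 9 of 94 did at the depth minimum, where 7 naive Bc and 14 naive CD4Tc cells were left. Depth limits Ciita outside mDC1, mDC2 and myeloid1, and H2-DMa and H2-DMb1 in naive myeloid3.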

Other observations

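H2-Eb2, a second E beta gene that lies beside H2-Eb1 and was looked at after its values were seen, was read mainly in myeloid3, with 60.3 CPM in EAE cells (177 UMIs) and 143 CPM in naive cells (24 UMIs). In mDC2, where H2-Eb1 was far higher than in myeloid3, H2-Eb2 had 94 UMIs in EAE cells and 3 in naive cells (1.60 CPM). In Bc it had 40.8 and 31.5 CPM in EAE and naive cells, on 10 and 8 UMIs.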
